A study of Bos taurus and Cervus elaphus with 24 samples.

Results

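Interferon-stimulated genes are the genes that cells switch on after interferon binds its receptor, and the set described here leaves out the oligoadenylate synthetases (the OAS family). The set was a list of 39 gene symbols, and its members were taken as the non-control probes filed under one of these symbols on the array. Of the 39 genes, 36 had a probe, out of 25232 gene names on the array, and the 36 genes were covered by 79 of 43653 probes. IFI44, ADAR and SP110 had no probe of that name and were not analysed here. Each gene is represented by its brightest probe unless another probe is named. All 36 of these probes were well above the local background in the sample channel on all 24 arrays, so no member was lost to the filter on dim probes.

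Type I and type II interferons act through receptor-bound JAK kinases and STAT proteins, which enter the nucleus and bind short DNA elements in the promoters of the induced genes. The products include RNA sensors that start the response (DDX58, also called RIG-I, IFIH1 and DHX58). Others block steps of viral growth, from entry to release (the IFITM and IFIT families, MX1, MX2, RSAD2, BST2). Further products are the ubiquitin-like protein ISG15 with its protease USP18, and transcription factors that raise or sustain the response. In ruminant blood these genes are best known as a readout of viral infection and of early pregnancy, when the conceptus secretes interferon tau.

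The samples were blood RNA from 4 Holstein-Friesian cows (HF, a dairy breed), 4 Polish Red cows (PR) and 4 deer (filed as Cervus elaphus), each sampled once in the dry period and once at peak lactation, which gives 6 groups of 4 arrays. Blood was drawn into RNA-stabilising tubes and the labels call the cells peripheral blood nuclear cells. Every sample was labelled with Cy5 and hybridised to a bovine array together with a common reference labelled with Cy3, a pool from 20 cattle outside the 6 groups. No genetic modification or treatment is named for any group, and neither age nor infection or pregnancy status is given in the sources used here.

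Values are log2 ratios of sample over reference, written for animals 1 to 4 in order. A value of 1 is a level double that of the reference pool on the same probe. Ratios of different probes are not comparable as levels, and deer RNA was read with bovine probes against a bovine pool. Each animal gave both of its arrays, so a lactation difference compares the same 4 animals. State cannot be told apart from the time of sampling, since each animal was sampled once in each state. In RNA from mixed blood cells, fewer cells of a type and less RNA per cell cannot be told apart.

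The arrays were of similar brightness except one. The dry-period array of PR animal 1 had a median Cy5 signal of 2068 against 108 to 254 on the other 23, and 696 spots flagged as outliers against at most 71. The spike-in controls of the 4 arrays of HF animals 2 and 3 correlated with their set amounts at 0.174 to 0.401, against 0.331 on the bright PR array and at least 0.899 elsewhere. The medians and the leading members of the comparisons that use these arrays are also given without them. Each HF animal had both arrays on the same slide, PR animals 2 and 3 and all 4 deer were split between slides, and the deer slides held deer only. All HF dry arrays lay at position 1 of their slide, and the HF lactation arrays at position 3 or 4. State and array position therefore cannot be told apart within HF.

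The probes themselves bear on what the values mean, most of all in deer, and 12 of the 60-base probes are shown because the results below turn on them. Coordinates are those in the array files, on the bovine assembly UMD 3.1, with the strand as filed; an annotation of exons on that assembly was not used here. Capitals mark the stretch that the ISG15 probes share; the others share no long stretch.
ISG15, brightest probe, chr16:52714747-52714806, minus strand: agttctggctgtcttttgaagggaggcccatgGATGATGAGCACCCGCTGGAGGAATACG
ISG15, other probe, chr16:52714715-52714774, minus strand: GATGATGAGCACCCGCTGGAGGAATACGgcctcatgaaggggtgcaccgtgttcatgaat
MX1, brightest probe, chr1:143204603-143204662, plus strand: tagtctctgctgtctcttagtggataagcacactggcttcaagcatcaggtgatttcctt
MX1, second probe, chr1:143204800-143204859, plus strand: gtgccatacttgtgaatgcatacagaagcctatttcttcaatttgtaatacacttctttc
MX1, last probe, chr1:143176084-143176143, plus strand: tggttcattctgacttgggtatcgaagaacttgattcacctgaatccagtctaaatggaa
IFITM3, brightest probe, chr29:51367886-51367945, plus strand: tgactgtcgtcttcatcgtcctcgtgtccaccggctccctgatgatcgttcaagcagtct
IFITM3, second probe, chr29:51368007-51368064, plus strand: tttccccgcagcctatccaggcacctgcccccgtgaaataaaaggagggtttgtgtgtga
IFITM3, last probe, chr29:51367831-51367884, minus strand: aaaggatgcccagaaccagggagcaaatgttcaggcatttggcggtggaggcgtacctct
BST2, brightest probe, chr7:5659034-5659093, plus strand: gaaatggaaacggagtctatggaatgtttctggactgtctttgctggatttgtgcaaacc
BST2, other probe, chr7:5670681-5670740, plus strand: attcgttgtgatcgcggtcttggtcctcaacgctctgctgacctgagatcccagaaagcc
SAMD9, brightest probe, chr4:10306341-10306400, minus strand: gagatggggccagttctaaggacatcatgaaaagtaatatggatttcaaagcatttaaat
SAMD9, other probe, chr4:10302670-10302729, minus strand: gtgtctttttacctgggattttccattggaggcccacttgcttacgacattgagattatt

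In Holstein-Friesian cows, 34 of the 36 members had a higher mean ratio at peak lactation than in the dry period, but no single member passed the test. The median difference over the members was 0.27 log2, where the median over all 33103 probes tested was -0.0089 and 47.3% of probes were higher. The antiviral effectors lay highest, with a median of 0.46 and 12 of 13 higher, followed by the genes of other role (0.27), the regulators (0.22), the sensors (0.20), the PARPs (0.18) and the ISG15 and ubiquitin genes (0.17). In limma's moderated test with Benjamini-Hochberg adjustment 0 of 36 members were called, against 0.00906% of all probes, and 7 members had an unadjusted p under 0.05 against 8.11% of all probes. The lowest adjusted p of a member in this limma fit was 0.294, for LGALS9.

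**Figure D1:**
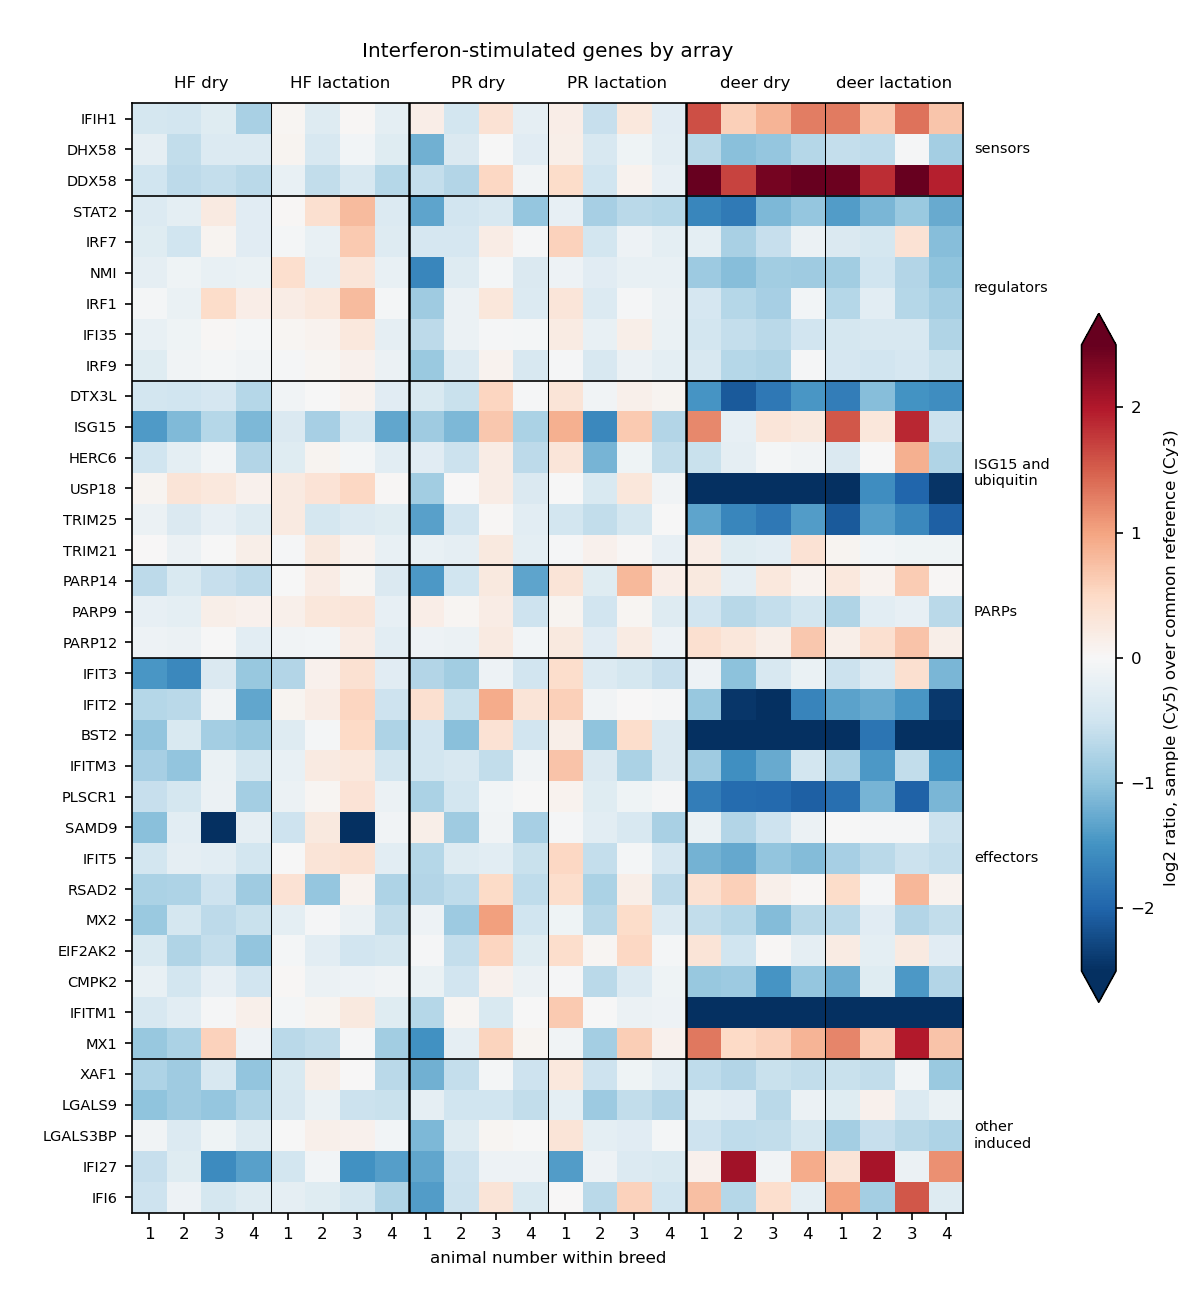
Log2 ratio of sample over common reference for the 36 members (rows, grouped by role and ordered by their Holstein-Friesian difference) on the 24 arrays (columns, by group and animal number); the colour scale stops at 2.5 in either direction. The dry-period Holstein-Friesian columns are mostly blue and the lactation columns paler, and rows such as DDX58, IFITM1 and BST2 separate the deer from the cattle.

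Among the effectors, IFIT3, whose product binds viral RNA together with other IFIT proteins, had the largest difference. Its log2 ratios were -1.45, -1.60, -0.37 and -0.94 in the dry period and -0.73, 0.11, 0.38 and -0.28 at lactation. It was higher in 4 of 4 animals, and the groups overlapped only through the dry-period value of animal 3 and the lactation value of animal 1. The difference was 0.96 (SE 0.32), a 1.94-fold ratio, with a limma adjusted p of 0.396, and the gene's other probe gave 1.09.

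IFIT2, another RNA-binding member of that family, had ratios of -0.70, -0.67, -0.09 and -1.31 in the dry period. At lactation they were 0.07, 0.18, 0.54 and -0.51, higher in 4 of 4 animals by 0.76 (SE 0.36; limma adjusted p 0.600). BST2, or tetherin, which holds budding virus at the cell surface, had ratios of -0.99, -0.38, -0.85 and -0.94, then -0.32, -0.06, 0.50 and -0.77 at lactation. It was higher in 4 of 4 animals by 0.63 (SE 0.47; limma adjusted p 0.841), but its other probe, farther along chromosome 7, gave 0.07.

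IFITM3, which restricts viral entry through endosomes, had ratios of -0.84, -0.98, -0.17 and -0.45 in the dry period and -0.18, 0.22, 0.27 and -0.45 at lactation. The first 3 animals were higher and animal 4 stayed level, for a difference of 0.57 (SE 0.29; limma adjusted p 0.651). All 3 probes filed as IFITM3 were higher, from 0.31 to 0.68, although the last is filed on the minus strand and the other 2 on the plus strand. The other effectors were higher by 0.52 for PLSCR1, a membrane scramblase, by 0.47 for SAMD9, a poxvirus restriction factor, by 0.46 for IFIT5, by 0.42 for RSAD2 (viperin), by 0.39 for MX2 and by 0.37 for EIF2AK2, the kinase PKR that stops translation. CMPK2, a nucleotide kinase whose gene lies beside RSAD2, was higher by 0.25 and IFITM1 by 0.14, and the dynamin-like GTPase MX1 was the exception at -0.23 (SE 0.41). The other MX1 probes gave -0.15 and 0.05.

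Of the remaining roles, LGALS9, the sugar-binding protein galectin-9, gave the clearest separation of the Holstein-Friesian groups. Its ratios were -1.0, -0.88, -0.96 and -0.77 in the dry period and -0.40, -0.17, -0.54 and -0.55 at lactation, so every lactation value lay above every dry value. The difference was 0.49 (SE 0.14), and its other probe gave 0.24. The mono-ADP-ribosyltransferase PARP14 (0.53, SE 0.27), DTX3L (0.46, SE 0.19), a ubiquitin ligase that works with PARP9, LGALS3BP (0.27) and CMPK2 also had groups that did not overlap. These 5 members compare with 6.42% of all probes whose groups did not overlap, or 3.33% counting only those higher at lactation.

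The sensors IFIH1 (0.38), DHX58 (0.20) and DDX58 (0.13) were higher by less than their spread allowed to be called, as were the regulators STAT2 (0.39), IRF7 (0.28), NMI (0.24), IRF1 (0.19), IFI35 (0.13) and IRF9 (0.13). ISG15 itself, a ubiquitin-like protein, differed by 0.37 (SE 0.53). Its relatives in the pathway were HERC6 (0.25), a ligase, USP18 (0.09), the ISG15 protease, and the ubiquitin ligases TRIM25 (0.04) and TRIM21 (0.03). PARP9 (0.18) and PARP12 (0.09), XAF1 (0.53), a pro-apoptotic protein, IFI27 (0.10) and IFI6 (-0.08), small mitochondrial proteins, complete the list.

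The Holstein-Friesian shift was carried by 3 of the 4 cows. The median member difference was 0.37 in animal 1, 0.33 in animal 2 and 0.32 in animal 3, with 35, 32 and 34 members higher. In animal 4 it was 0.01, with 19 of 36 higher, and its lactation array held the lowest value of the group for 24 members. The share of all probes lowest on that array was not computed. Over the whole list 17 members were higher in 4 of 4 cows, where 12.3% of all probes were. At probe level 73 of 78 detected member probes were higher, and the probes of 28 of 30 members with more than 1 probe had the same sign. Probes of a gene read the same RNA on the same arrays, and some overlap, so they do not add independent members. The share of all genes whose probes had the same sign was not computed. The median stayed above zero under all 44 alternatives tried, from 0.21 to 0.34. It was 0.31, with 32 of 36 higher, without the arrays of animals 2 and 3, whose spike-in controls were poor. That fit kept only animals 1 and 4 of this breed, whose own medians were 0.37 and 0.01. Without the arrays of animals 2 and 3 IFIT3 was at 0.69, IFIT2 at 0.78, BST2 at 0.43, IFITM3 at 0.32, LGALS9 at 0.41 and STAT2 at 0.16, while TRIM21 (-0.18) and IFITM1 (-0.03) turned.

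**Figure D2:**
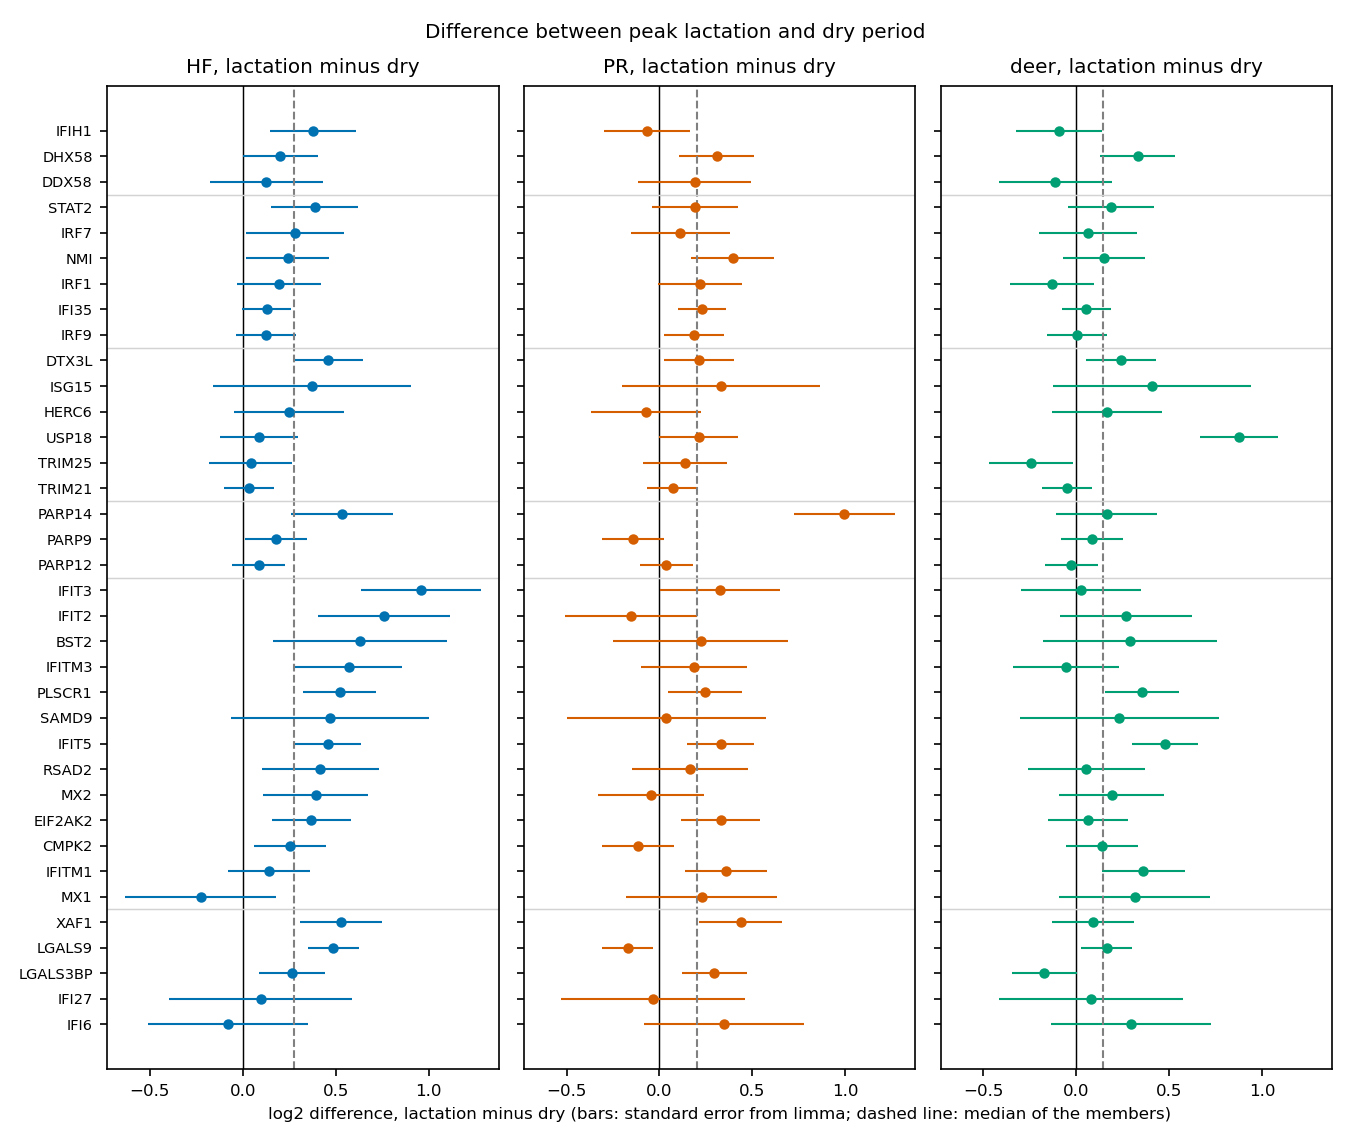
Difference between peak lactation and dry period (log2, horizontal axis) for each member in Holstein-Friesian cows (left), Polish Red cows (middle) and deer (right), with standard errors from limma and a dashed line at the median of the 36 members. The medians are 0.27, 0.20 and 0.15, and PARP14 in Polish Red and USP18 in deer stand farthest to the right of theirs.

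Blood cell markers moved in the same cows. All 10 of 10 neutrophil marker genes were higher at lactation in Holstein-Friesian cows, with a median difference of 1.12. The per-array mean of the neutrophil list was -1.12 to -0.52 in the dry period and -0.47 to 1.49 at lactation. The monocyte markers were higher for 8 of 8 genes (median 0.66), from array means of -0.89 to -0.51 up to -0.39 to 0.19. The B cell markers were lower for 6 of 6 genes (median -0.47), the NK cell markers for 6 of 6 (-0.36) and the T cell markers for 7 of 8 (-0.12). The platelet markers were lower for 4 of 4 genes (-0.18) and the erythroid markers higher for 6 of 6 (0.15). No marker gene was called by limma's adjusted test, although 8 of the 10 neutrophil and 6 of the 8 monocyte genes had an unadjusted p under 0.05. The part of cell mix in the interferon gene differences was not tested.

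In Polish Red cows, 28 of 36 members had a higher mean ratio at lactation, and this rested largely on animal 1. The member median was 0.20 against 0.02 over 32592 probes, of which 56.6% were higher. None of the 36 was called by limma's adjusted test, where 0% of all probes were called, and 1 member had an unadjusted p under 0.05 against 6% of all probes. The median difference was 0.90 in animal 1, whose dry array is the bright one, and -0.04, -0.17 and 0.03 in animals 2, 3 and 4. Without that bright array the median was 0.04 with 27 of 36 higher, and without both arrays of animal 1 it was -0.06 with 13 of 36 higher.

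PARP14, which modifies proteins with single ADP-ribose units, had the largest Polish Red difference and the only one under an unadjusted p of 0.05. Its ratios were -1.43, -0.49, 0.25 and -1.33 in the dry period and 0.32, -0.30, 0.81 and 0.16 at lactation, so it was higher in 4 of 4 animals while the groups overlapped. The difference was 1.00 (SE 0.27), a 1.99-fold ratio, with a limma adjusted p of 0.797. It was 0.77 without the bright array and 0.74 without both arrays of animal 1, but the gene's other probe gave 0.20. The authors' deposited table, which lists this probe for Polish Red cows, has a mean of -0.83 in the dry period and 0.22 at lactation. It was the only member among the 437, 158 and 576 probes of the authors' deposited tables for HF, PR and deer.

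The next differences in Polish Red cows depended on animal 1. XAF1 had ratios of -1.20, -0.60, -0.05 and -0.52 in the dry period and 0.26, -0.52, -0.10 and -0.26 at lactation, a difference of 0.44 (SE 0.22) that was 0.09 without both arrays of animal 1. NMI, a partner of STAT proteins, had -1.63, -0.32, -0.04 and -0.36, then -0.13, -0.29, -0.19 and -0.18, a difference of 0.39 (SE 0.22) that was 0.02 without that animal. IFITM1, a membrane protein that blocks viral entry, had -0.72, 0.05, -0.37 and -0.02, then 0.66, -0.02, -0.15 and -0.13, a difference of 0.36 (SE 0.22) that was also 0.02 without it. The IFITM1 probe has no genome position in the array files. When names were updated through the reference table another probe, filed as IFITM2, stood for IFITM1, and it gave 0.06 in Polish Red cows and 0.02 in deer. The same update moved DDX58 to another probe, which gave 0.32 in Holstein-Friesian cows, 0.24 in Polish Red cows and 0.18 in deer.

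The other Polish Red effectors ranged from 0.33 (IFIT5, EIF2AK2 and IFIT3) through PLSCR1 (0.25), MX1 (0.23), BST2 (0.22), IFITM3 (0.19), RSAD2 (0.17) and SAMD9 (0.04) down to MX2 (-0.05), CMPK2 (-0.12) and IFIT2 (-0.15). The sensors were DHX58 (0.31), DDX58 (0.19) and IFIH1 (-0.07), and the regulators IFI35 (0.23), IRF1 (0.22), STAT2 (0.19), IRF9 (0.19) and IRF7 (0.11). ISG15 (0.33), DTX3L (0.21), USP18 (0.21), TRIM25 (0.14), TRIM21 (0.07) and HERC6 (-0.07) made up the ISG15 and ubiquitin genes. PARP12 was at 0.04 and PARP9 at -0.14, and the remaining genes were IFI6 (0.35), LGALS3BP (0.30), IFI27 (-0.04) and LGALS9 (-0.17). Without the bright array ISG15 was at 0.21, IFIT5 at 0.24, DHX58 at 0.06, IFI6 at 0.05 and LGALS3BP at 0.04, and MX1 turned to -0.18. Without both arrays of animal 1 ISG15 was at -0.15, IFIT3 at 0.05, IFIT5 at 0.02 and EIF2AK2 at 0.28. IFIH1 and LGALS9 were lower in 4 of 4 Polish Red cows, with IFIH1 at only -0.00014 in animal 1 and lower on 1 of its 3 probes. Only PARP14 and BST2 were higher in 4 of 4, where 5.74% of all probes were. The share of all probes lower in 4 of 4 was not computed. No member had groups that did not overlap, where 2.13% of all probes had, or 0.948% counting those higher at lactation.

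Probes of the same gene had the same sign in 15 of 30 members in this breed, and 53 of 78 member probes were higher. Within slides, the member median was 0.90 on the slide of animal 1, -0.54 on a slide with the dry array of animal 3 and the lactation array of animal 2, and 0.19 on a slide with the dry array of animal 4 and the lactation arrays of animals 3 and 4. The neutrophil markers were higher for 8 of 10 genes in these cows (median 0.58; array means -1.20 to -0.61 dry, -0.50 to 0.00 at lactation) and the monocyte markers for 7 of 8 (0.42). Their part in the interferon gene values was not tested.

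**Figure D3:**
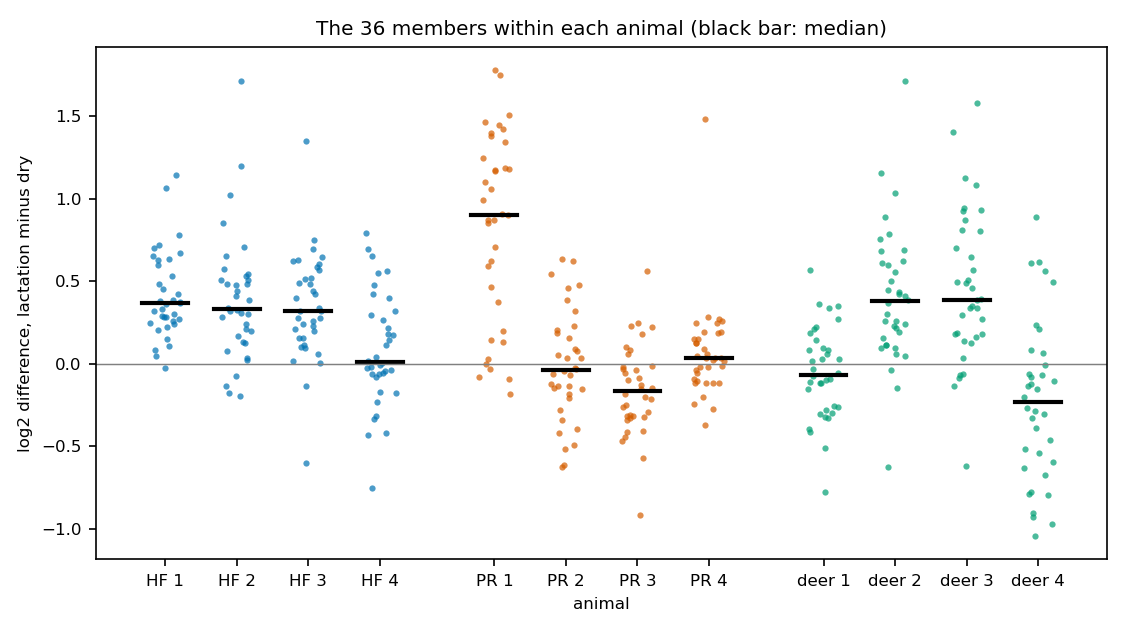
Difference between lactation and dry period (log2, vertical axis) of each of the 36 members (points) within each of the 12 animals, with the median as a black bar. The medians lie at 0.37, 0.33, 0.32 and 0.01 in Holstein-Friesian cows, at 0.90, -0.04, -0.17 and 0.03 in Polish Red cows and at -0.07, 0.38, 0.39 and -0.23 in deer.

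With both breeds pooled, 35 of 36 members were higher at lactation and the member median was 0.23, against 0.01 and 53.8% higher over all 33480 probes. None was called, where 0.00299% of all probes were, and the lowest limma adjusted p was 0.171, for PARP14 (0.76, SE 0.19). IFIT3 (0.64), XAF1 (0.48), IFIT5 (0.39) and PLSCR1 (0.38) followed among the 8 members with an unadjusted p under 0.05, against 9.57% of all probes. Without both arrays of Polish Red animal 1 the pooled median was 0.10 with 32 of 36 higher. The difference between the breeds' effects was called for 0 of 36 members, as for 0% of all probes, and 1 member had an unadjusted p under 0.05 against 3.23%. Its 2 largest values were 0.91 (SE 0.50) for IFIT2 and 0.66 (SE 0.19) for LGALS9, both larger in Holstein-Friesian cows. Both had a limma adjusted p of 0.996. The median of this difference was 0.11 with 22 of 36 larger in Holstein-Friesian cows, where 43.8% of all probes were, and 0.36 with 32 of 36 larger without both arrays of Polish Red animal 1.

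In deer, 28 of 36 members had a higher mean ratio at lactation, but the direction of the list turned with the scaling. The member median was 0.15 against 0.01 over 33391 probes, of which 52.4% were higher, and it was -0.18 with 10 of 36 higher when all arrays were scaled to the same spread. In limma's adjusted test 0 of 36 were called against 0.00599% of all probes, and 2 members, USP18 and IFIT5, had an unadjusted p under 0.05 against 9.56% of all probes. The animals went different ways, with medians of -0.07, 0.38, 0.39 and -0.23. The lactation arrays of animals 2 and 3 shared a slide and those of animals 1 and 4 another, so animal and slide cannot be told apart here. On the only slide with deer of both states, which held the dry array of animal 3 and the lactation arrays of animals 1 and 4, the median was 0.14 with 22 of 36 higher.

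USP18, which removes ISG15 from proteins and damps interferon receptor signalling, had the largest deer difference. Its ratios were -2.97, -3.27, -2.85 and -3.02 in the dry period and -2.61, -1.55, -1.98 and -2.45 at lactation. All 4 lactation values lay above all dry values, a difference of 0.88 (SE 0.21), 1.84-fold, with a limma adjusted p of 0.366. The gene's other probe gave 0.54, while scaling of the arrays turned the value to -0.39. IFIT5 had -1.18, -1.27, -0.99 and -1.09, then -0.83, -0.66, -0.53 and -0.59, again with no overlap, a difference of 0.48 (SE 0.18; limma adjusted p 0.450) that was -0.04 after scaling. These 2 members compare with 4.37% of all probes whose deer groups did not overlap, or 2.31% counting those higher at lactation, and with 9.67% higher in 4 of 4 animals.

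The lactation arrays of deer 2 and 4 had a smaller spread of log2 ratios over all probes (SD 0.52 and 0.66) than the other 6 deer arrays (0.80 to 0.85), and the part of this in the deer differences was not tested. With arrays weighted by quality 4 members were called, USP18, IFIT5, IFITM1 and PLSCR1, where 19.8% of all probes were, while the member median was -0.10 with 13 of 36 higher. After scaling IFITM1 was at -1.67, TRIM25 at -0.92, BST2 at -0.91, IFI27 at 0.97 and DDX58 at 0.84.

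ISG15 in deer had ratios of 1.21, -0.21, 0.31 and 0.25 in the dry period and 1.55, 0.29, 1.89 and -0.55 at lactation. It was higher in the first 3 animals and lower in animal 4, a difference of 0.41 (SE 0.53) that was -0.72 with array weights, and the overlapping probe of the same gene gave 0.49. IFITM1 had -4.65, -4.61, -4.29 and -4.70, then -4.09, -3.72, -4.90 and -4.09, higher in 3 of 4 animals by 0.36 (SE 0.22), which turned to -1.67 after scaling. The other effectors lay between 0.36 (PLSCR1) and -0.05 (IFITM3), with MX1 at 0.31, BST2 at 0.29, IFIT2 at 0.27, SAMD9 at 0.23, MX2 at 0.19, CMPK2 at 0.14, EIF2AK2 at 0.06, RSAD2 at 0.06 and IFIT3 at 0.03.

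The deer sensors were DHX58 (0.33), IFIH1 (-0.09) and DDX58 (-0.11, but 0.18 on the probe that stood for it after the name update). The regulators were STAT2 (0.19), NMI (0.15), IRF7 (0.06), IFI35 (0.05), IRF9 (0.00) and IRF1 (-0.13). DTX3L (0.24), HERC6 (0.17), TRIM21 (-0.05) and TRIM25 (-0.24) were the other ISG15 and ubiquitin genes. The PARPs were PARP14 (0.16), PARP9 (0.09) and PARP12 (-0.03). The remaining genes were IFI6 (0.29, SE 0.43), LGALS9 (0.17), XAF1 (0.09), IFI27 (0.08) and LGALS3BP (-0.17). No deer effect differed from the mean cattle effect in limma's adjusted test, in which 0 of 36 members and 0% of all probes were called. The deer effect was the larger for 13 of 36 members, where it was for 51.5% of all probes, and 2 members had an unadjusted p under 0.05 against 8.86%. USP18 came nearest, with a deer effect 0.73 (SE 0.26) larger and an adjusted p of 0.531.

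The deer markers did not move as in cattle. Neutrophil markers were lower at lactation for 9 of 10 genes (median -0.58; array means 0.34 to 1.05 dry, -0.66 to 0.36 at lactation), monocyte markers were split 4 and 4 (-0.05), and erythroid markers were lower for 5 of 6 genes (-0.60). Their part in the deer values was not tested.

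The common reference itself was read on every array in Cy3, which gives a check of the other channel. The lactation minus dry difference of the members in Cy3 alone had a median of -0.03 in Holstein-Friesian cows, 0.17 in Polish Red cows and -0.10 in deer. In Cy3 13, 26 and 7 of 36 members were higher, and 0 were called. Deer Cy3 differences were -0.37 for DHX58, -0.36 for PLSCR1, -0.32 for ISG15 (SE 0.11) and -0.27 for IFITM1. The deer ratio differences of these genes were 0.33, 0.36, 0.41 and 0.36. The part of Cy3 in the ratio differences was not tested. The reference pool was the same for all arrays, so a shift in Cy3 is not a difference between the animals. The corresponding Cy3 medians over all probes were -0.02, 0.10 and -0.03.

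**Figure D4:**
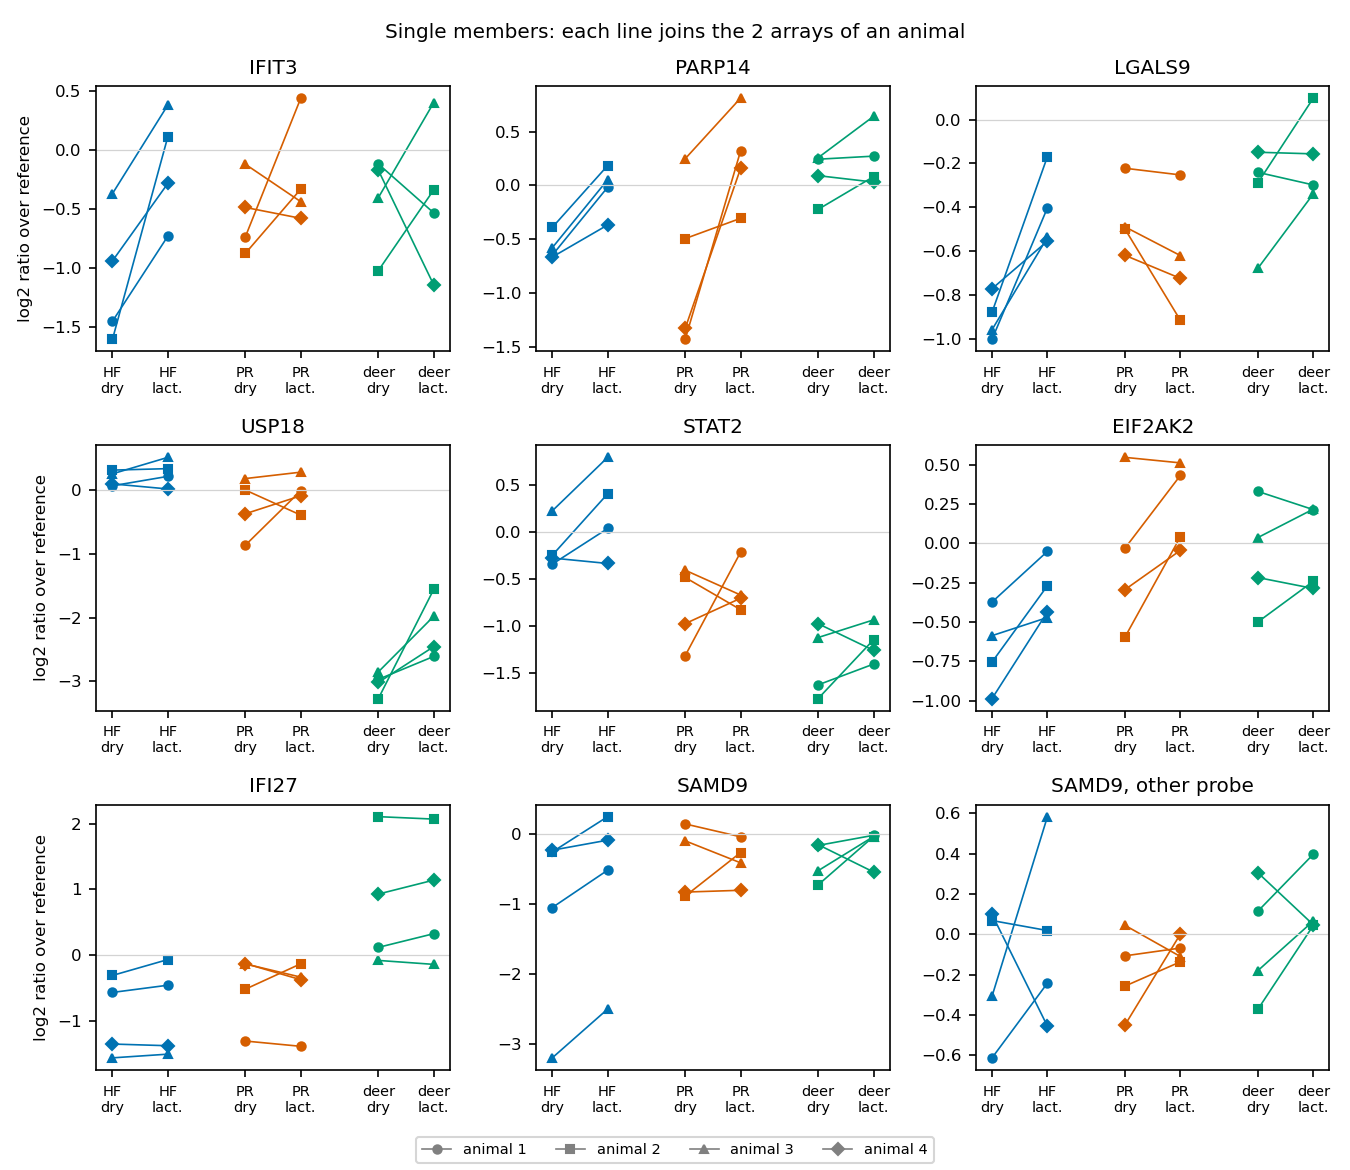
Log2 ratio over the reference (vertical axis) of 8 members on their brightest probe, and of SAMD9 on its other probe, in the dry period and at lactation; each line joins the arrays of 1 animal. LGALS9 separates by state in Holstein-Friesian cows and USP18 in deer, IFI27 is highest in animal 2 of the Holstein-Friesian cows and of the deer in both states, and the low SAMD9 values of Holstein-Friesian animal 3 (-3.20 and -2.50) are absent on the other probe.

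The cattle breeds were next compared within each state, to see how far the interferon genes differ between cows of different breed. In the dry period 0 of 36 members were called by limma where 3.15% of all probes were, 6 had an unadjusted p under 0.05 against 22.4%, and the member median was -0.10. Of the members 14 were higher in Holstein-Friesian cows, where 52% of all probes were, and 2.73% of all probes were called higher. The effectors were mostly lower in Holstein-Friesian cows (11 of 13, median -0.36) and the regulators mostly higher (5 of 6, median 0.32). Without the bright Polish Red array these were 12 of 13 lower (median -0.45) and 4 of 6 higher (median 0.08), and the differences described next were 0.46 for STAT2, -0.56 for EIF2AK2, -0.92 for IFIT2, -0.37 for LGALS9 and -0.58 for SAMD9. At lactation 0 of 36 were called by limma where 0.0121% of all probes were (0.00607% in each direction), 2 had an unadjusted p under 0.05 against 14.9%, and the member median was 0.04. The groups did not overlap for 2 members in the dry period and 1 at lactation, where they did not for 9.02% and 11.9% of all probes. Of the dry-period pair STAT2 was the higher in Holstein-Friesian cows and LGALS9 the lower, and 6.08% of all probes lay higher without overlap. The breeds shared only the slide of HF animal 4, which also held the dry array of PR animal 2.

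STAT2, which works with IRF9 in type I interferon signalling, was the most different member at lactation and among the leading ones in the dry period. Its Holstein-Friesian ratios were -0.34, -0.25, 0.23 and -0.28 dry and 0.04, 0.41, 0.79 and -0.33 at lactation. In Polish Red cows they were -1.31, -0.48, -0.41 and -0.97 dry and -0.21, -0.83, -0.67 and -0.70 at lactation. All dry Holstein-Friesian values lay above all dry Polish Red values, by 0.63 (SE 0.23; limma adjusted p 0.115), and at lactation only HF animal 4 and PR animal 1 overlapped (0.83, SE 0.23; limma adjusted p 0.108). The other STAT2 probe gave -0.31 and -0.05, so the difference was not seen on both probes.

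EIF2AK2, the kinase PKR, lay lower in Holstein-Friesian cows. It had ratios of -0.37, -0.75, -0.59 and -0.99 dry and -0.05, -0.27, -0.47 and -0.44 at lactation, against -0.03, -0.60, 0.55 and -0.29 dry and 0.43, 0.04, 0.51 and -0.04 at lactation in Polish Red cows. The lactation groups did not overlap. The breed difference was -0.58 (SE 0.21; limma adjusted p 0.115) in the dry period and -0.54 (SE 0.21; limma adjusted p 0.240) at lactation, and the gene's other probe gave -0.14 in both states.

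IFIT2 had the largest breed difference of a member in the dry period, -0.97 (SE 0.36; limma adjusted p 0.115) with Polish Red ratios of 0.41, -0.56, 0.92 and 0.33. At lactation those were 0.60, -0.08, 0.01 and -0.04 and the difference was -0.05. LGALS9 had the lowest limma adjusted p of a member between the breeds, 0.0702, with a dry-period difference of -0.45 (SE 0.14) and no overlap with the Polish Red ratios of -0.22, -0.50, -0.49 and -0.62, but its other probe gave -0.13. SAMD9 was lower by 0.77 log2 on average in Holstein-Friesian cows in the dry period (SE 0.53), a value set by animal 3, as described next. At lactation ISG15 (-0.51) and MX1 (-0.50) were also lower in Holstein-Friesian cows, with standard errors of 0.53 and 0.41, and both spanned wide ranges in Polish Red cows. ISG15 there had ratios of -0.89, -1.12, 0.67 and -0.79 in the dry period and 0.89, -1.61, 0.65 and -0.73 at lactation, while in Holstein-Friesian cows it stayed between -1.42 and -0.35. MX1 had Polish Red ratios of -1.51, -0.23, 0.55 and 0.07 dry and -0.09, -0.84, 0.61 and 0.11 at lactation, and Holstein-Friesian ratios of -0.95, -0.79, 0.57 and -0.12, then -0.68, -0.62, -0.03 and -0.88.

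Several members differed more between individual animals than between the states. In 13 of 36 members in Holstein-Friesian cows, 13 in Polish Red cows and 9 in deer, the range of the 4 animal means was larger than the largest change of state in any animal. The share of all probes with such a range was not computed, so these counts do not set the members apart from other genes. IFI27, a mitochondrial protein used as an interferon marker in blood, was the clearest case. In Holstein-Friesian cows its ratios were -0.57, -0.31, -1.56 and -1.35 in the dry period and -0.46, -0.07, -1.51 and -1.38 at lactation. In Polish Red cows animal 1 was low in both states, at -1.31 and -1.39, against -0.52 to -0.13 in the others. In deer the ratios were 0.12, 2.11, -0.08 and 0.93, then 0.33, 2.07, -0.14 and 1.14, so animal 2 was highest and animal 4 next in both states.

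On the other IFI27 probes too, deer animals 2 and 4 lay above deer animals 1 and 3, and Holstein-Friesian animals 1 and 2 above animals 3 and 4, though the order within these pairs varied. On the second probe deer animal 2 had 2.31 and 2.44, animal 4 had 1.44 and 1.33, and the other 2 deer lay between 0.21 and 0.66. Holstein-Friesian animals 3 and 4 were at -2.53 to -2.05 on that probe, against -0.81 to 0.06 in animals 1 and 2. On the last probe, at chr21:59331523-59331582, deer animal 2 had 1.88 and 1.22 and animal 4 had 1.43 and 1.17. The low dry value of Polish Red animal 1 on the brightest probe was -0.11 on this one, although its lactation value was -1.09.

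SAMD9 gave the opposite result when its probes were compared. On the brightest probe Holstein-Friesian ratios were -1.05, -0.25, -3.20 and -0.23 in the dry period and -0.51, 0.25, -2.50 and -0.09 at lactation, so animal 3 lay far below the others in both samples. On the gene's other probe animal 3 had -0.31 and 0.58, within or above the range of the others. In Polish Red cows and deer the brightest probe stayed between -0.89 and 0.15. The Holstein-Friesian lactation difference of SAMD9, 0.47, was -0.20 without the dry array of animal 3 and 1.07 without its lactation array. No test was made of this, since animal 3 was singled out by its value.

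Single animals also stood out across many members at once. The dry array of Polish Red animal 3 held the highest value of its group for 30 of 36 members, among them MX2 at 1.03 and RSAD2 at 0.48 against at most -0.13 and -0.63 in the other 3. The lactation array of Polish Red animal 1 was highest for 25 and that of animal 2 lowest for 28. In deer the lactation array of animal 3 was highest for 20 members, with MX1 at 1.98, ISG15 at 1.89 and IFI6 at 1.55, and the dry array of animal 2 lowest for 21. The dry group of Polish Red cows includes the bright array of animal 1, which was lowest for 18 members. The corresponding shares over all probes were not computed, so these counts do not set the members apart from other genes.

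Deer and cattle were compared last, within each state. In the dry period 23 of 36 members were called, 9 higher and 14 lower in deer, where 57.5% of all 35177 probes were called, 26.8% higher and 30.7% lower. At lactation 24 were called, 7 higher and 17 lower, against 49.3% of probes, 22.2% higher and 27.1% lower. Species, slide and the match of deer RNA to bovine probes cannot be told apart in these differences.

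The members farthest above cattle, averaged over both states, were DDX58 (2.76), IFI27 (1.53) and MX1 (1.27). DDX58, the RNA helicase RIG-I, had deer ratios of 2.96, 1.68, 2.40 and 2.85 in the dry period and 2.45, 1.84, 3.21 and 1.95 at lactation, against -0.73 to 0.51 in all cattle. Its difference was 2.89 (SE 0.26; limma adjusted p 7.19e-09) in the dry period and 2.62 (SE 0.26; limma adjusted p 4.67e-08) at lactation. MX1 had deer ratios of 1.31, 0.50, 0.58 and 0.86, then 1.22, 0.60, 1.98 and 0.70, and overlapped the cattle range of -1.51 to 0.61.

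The members farthest below were IFITM1 (-4.30), BST2 (-3.19) and USP18 (-2.62). IFITM1, whose probe has no genome position in the array files, had deer ratios between -4.90 and -3.72 against -0.72 to 0.66 in cattle, with a dry-period difference of -4.36 (SE 0.19; limma adjusted p 1.11e-13). BST2 had -4.07, -2.61, -4.30 and -3.93, then -4.17, -1.82, -4.44 and -3.31, so deer animal 2 lay highest in both states, and cattle lay between -1.05 and 0.50. USP18 did not overlap the cattle range of -0.86 to 0.52 either, with a dry-period difference of -2.99 (SE 0.18; limma adjusted p 2.01e-11).

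**Figure D5:**
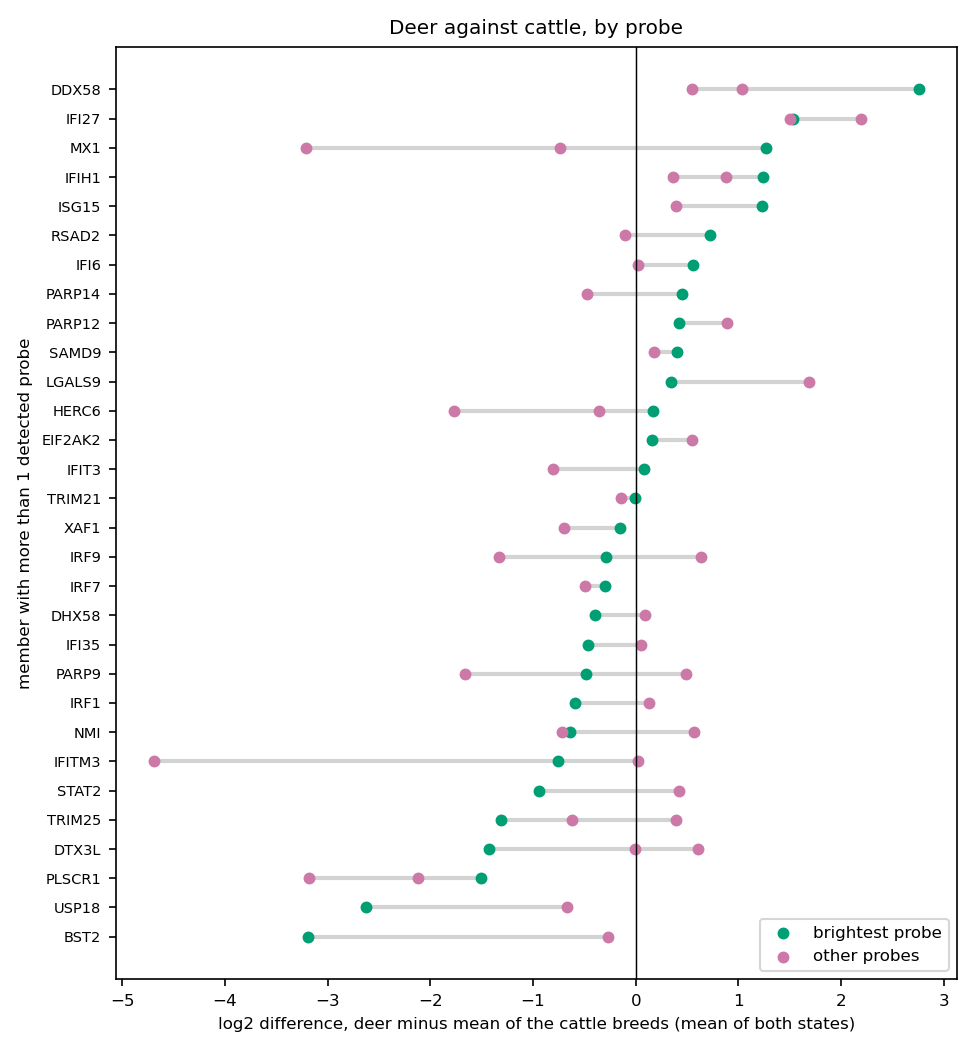
Deer minus the mean of the cattle breeds (log2, horizontal axis, mean of both states) for every detected probe of the 30 members with more than 1 such probe; green points are the brightest probe of a gene, pink points its other probes, and grey lines join them. MX1 runs from -3.21 to 1.27 and IFITM3 from -4.69 to 0.02, while the probes of DDX58, IFI27 and IFIH1 all lie above zero.

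Different probes for the same gene often gave different answers in deer. For MX1, the probe at chr1:143204603-143204662 was 1.27 higher in deer, the one at chr1:143204800-143204859, close by on the same strand, was -3.21, and the last was -0.73. In cattle the first pair moved together, with dry-period values of -0.95 and -0.92, -0.79 and -0.71, 0.57 and 0.79 and -0.12 and -0.42 in Holstein-Friesian animals 1 to 4. IFITM3 ranged from 0.02 on the minus-strand probe through -0.75 to -4.69 on the probe at chr29:51368007-51368064. For BST2 the brightest probe gave -3.19 and the other -0.27, and the ISG15 probes, which share 28 bases, gave 1.23 and 0.39.

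In 15 of the 30 members with more than 1 detected probe the probes differed in sign between deer and cattle, and in 6 members all detected probes were called in the same direction in both states. These were DDX58 (2.76, 1.03 and 0.55), IFI27 (1.53, 2.19 and 1.51), LGALS9 (0.34 and 1.69) and PARP12 (0.42 and 0.88), which were higher in deer, and PLSCR1 (-1.51, -3.18 and -2.12) and USP18 (-2.62 and -0.67), which were lower. The probe that stood for DDX58 after the name update is not among these. IFIH1, the sensor of long double-stranded RNA, was higher on all 3 of its probes (1.24, 0.36 and 0.88) but was called on 2 of them. Among the other called members, TRIM25 (-1.31, -0.62 and 0.40) and STAT2 (-0.95 and 0.42) changed sign with the probe.

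The wider interferon pathway was read from a list of 72 further genes, of which 60 had a probe. At lactation 39 of 57 tested genes were higher in Holstein-Friesian cows (median 0.11), 41 of 57 in Polish Red cows (0.13) and 28 of 55 in deer (0.00), with none called in any and 9, 3 and 3 with an unadjusted p under 0.05. Over all probes 47.3%, 56.6% and 52.4% were higher, and 8.11%, 6% and 9.56% had such a p. The largest Holstein-Friesian values were those of the interferon gamma receptor chains IFNGR1 (0.67) and IFNGR2 (0.66) and of UBE2L6 (0.64), the conjugating enzyme for ISG15. In Polish Red cows they were IFI30 (0.38), a lysosomal thiol reductase, the signalling inhibitor SOCS1 (-0.37) and the kinase JAK1 (0.37). In deer they were TMEM173 (0.61), the DNA-sensing adaptor STING, IFNGR1 (-0.56) and EPSTI1 (0.53, SE 0.62).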

How the data were processed

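The members, gene lists and tests were chosen with earlier results of these data known. Each deposited spot file holds Cy5 and Cy3 intensity per spot, made with Agilent Feature Extraction (10.7.3.1 per the submitters' processing notes, 10.10.1.1 per the file headers). The same deposited files give the log10 ratio of Feature Extraction, used as an alternative, and calls per spot for background and outliers (a score of 0 or 1 per the file headers). The authors' deposited tables give log2 group values whose arrays are not named, and their means are quoted only where named.

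With R 4.3.3 and limma 3.58.1, mean intensity was background-corrected (normexp, offset 50) and loess-normalised within arrays, with 1417 control spots at weight 0 and 965 outlier spots removed; repeated spots of a probe were averaged. A model of 6 group means over 24 arrays was fitted to all probes. A comparison tested probes well above background in Cy5 on at least 3 of 4 arrays of a group, with Benjamini-Hochberg adjustment over all of them and a threshold of 0.05. Values in every array are given for the 4 members with the largest difference in each comparison of state or cattle breed and the 3 largest in each direction between deer and cattle; LGALS9 was added after its values were seen. The script was tested on simulated data. With 4 animals a group, the number of arrays limits the precision. Figures were drawn with matplotlib.

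Each animal was sampled in both states, per the series' design text, so same-numbered samples of a breed were taken as the same animal and the numbers as pairing the samples. As a check, the deviations of an animal's arrays from their group means were correlated over detected probes. The values lay between 0.15 and 0.52 in HF, 0.02 and 0.27 in PR and 0.18 and 0.36 in deer. An animal's own pair gave the highest value for 4 of 4 animals in HF, 3 of 4 in PR and 4 of 4 in deer. PR animal 1 was the exception, with 0.02 for its own pair against 0.06 with another animal. The check did not bear out the pairing of that animal.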

Additional observations from a re-analysis of the deposited data

Results flagged for a closer look

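Of 216 combinations of member and group, 9 had an array that stood apart from the other 3 by Dixon's gap criterion, where chance alone flags about 1 in 20 (10.8 here). In Polish Red cows the lactation array of animal 1 was high for IFIT2 (0.60, next 0.01) and IFITM1 (0.66, next -0.02), and the dry array of animal 3 was high for RSAD2 (0.48, next -0.63) and TRIM21 (0.25, next -0.18). In Holstein-Friesian cows in the dry period IRF9 was low in animal 1 (-0.30) and STAT2 high in animal 3 (0.23). In deer CMPK2 was low in the dry period in animal 3 (-1.47), and SAMD9 (-0.54) and IFI35 (-0.75) were low at lactation in animal 4.

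On their brightest probes IFIH1 and LGALS9 were higher at lactation in 4 of 4 Holstein-Friesian cows and lower in 4 of 4 Polish Red cows. For IFIH1 the difference in Polish Red animal 1, whose dry array is the bright one, was only -0.00014. Of the 3 IFIH1 probes only 1, the brightest, was lower in Polish Red cows. How often all probes show such a split was not computed. The effect of lactation differed between the breeds by 0.44 (SE 0.33) for IFIH1 and by 0.66 (SE 0.19) for LGALS9. In limma's test of that difference over all probes both had an adjusted p of 0.996, so neither passed.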

How the results depend on the processing

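Each comparison was repeated under up to 45 alternatives, of which 2, scan day as a random block and leaving out both arrays of PR animal 1, were chosen after seeing the data. The count of members called stayed at 0 for cattle pooled and for both differences between effects. Median centring in place of loess called 3 members for HF minus PR in the dry period (19.4% of probes) and turned that median to 0.30, and the deer minus cattle medians to 0.25 (dry) and -0.036 (lactation). Scaling between arrays turned the deer lactation median to -0.18 and left 10 members called for deer minus cattle, dry (35.2% of probes). An ANOVA with Tukey comparison, the study's kind of test, was also run here on the loess-normalised ratios. Unadjusted, it called 1 member each for lactation in HF (LGALS9, 1.09% of probes), PR (PARP14, 0.396%) and deer (USP18, 1.09%). For HF minus PR at lactation it called 1 (STAT2, 2.93%). These calls are not the authors' own, since PARP14 in PR was the only member in their deposited tables. Array weights called 4 for deer lactation (19.8%), 3 for HF minus PR dry (15.8%) and 1 at lactation (3.26%). Without both arrays of PR animal 1, 1 was called for HF minus PR at lactation (1.88%). Leaving out 1 array gave 0 to 4 for HF minus PR dry, the 4 without the dry array of PR animal 2 (IFIT2, EIF2AK2, DTX3L and LGALS9; 13.6%); the PR lactation median ran from 0.04 to 0.34. The cause of these changes was not tested.

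With the animal as a replicate block the paired fit left the Holstein-Friesian median at 0.27 and called 0 members in each lactation comparison, so the pairing changed no call. Deer minus cattle could not be fitted with slide as a fixed block. Over 1584 values per comparison the sign changed 27 times in HF, 66 times in PR and 132 times in deer.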
